A study of Ovis aries with 6 samples.

Results

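The genes described here are 99 genes of the cell cycle and of DNA replication, among 14480 gene rows measured in sheep ovary. They were taken by symbol: the MCM, ORC and numbered CDC families, cyclins A to L with a number, the CDKs and their CDKN1 and CDKN2 inhibitors, E2F factors, ANAPC subunits, CENP proteins, the BUB, AURK and PLK kinases, PCNA and DNA topoisomerase II. Of 126 symbols of that form in the RefSeq sheep annotation, 99 were listed by symbol and the other 27, among them MCM4, CCNE1, CCNE2, CDC45, BUB1, CDK7, E2F1 and CDKN1C, are absent by symbol from the values used here. Where 2 rows carried a symbol, which was so for CDC26 alone, the row with the higher mean was used.

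The samples are 6 ovary libraries of ewes in estrus, 3 of the Hu breed and 3 of the Mongolian breed, with no treatment, age or genotype named. Hu ewes of this Chinese breed often bear several lambs at a time and Mongolian ewes usually 1, so the comparison asks how ovaries of unlike reproductive capacity differ. The title of the series speaks of exosomes, whereas each sample is labelled as ovary and as polyadenylated RNA. Levels are in FPKM, which scales fragments by transcript length and library total. The labels do not say whether replicates are separate animals, so p-values measure only the spread between these libraries, which may be technical.

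A dividing cell first loads the MCM helicase onto origins marked by ORC, with the help of CDC6. The kinase CDC7 then starts the firing of origins, and the DNA is copied with the help of the PCNA clamp. Cyclins switch the CDKs on, CDKN proteins hold them back, and E2F factors drive the genes of S phase. CENP, BUB, AURK and PLK proteins then attach and separate the chromosomes, and the anaphase-promoting complex destroys the mitotic cyclins. In the ovary the granulosa cells of growing follicles divide fast, and CCND2, the D-type cyclin of those cells, is induced by follicle-stimulating hormone; after ovulation the cells leave the cycle, with CDKN1B among the inhibitors involved. These libraries hold whole tissue, where fewer cells of a type and less RNA per cell cannot be told apart.

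The 6 libraries were uneven, and this touches every result below. Between 6500 and 13342 gene rows were listed above 0 in the Hu libraries and between 10547 and 11463 in the Mongolian ones. Depth is unknown because no read counts were used here. Markers of ovarian stroma summed to between 1010 and 1220 FPKM in Hu and between 950 and 1060 in Mongolian, with 9 of 10 markers listed. Of 12 granulosa cell markers, 8 were listed, INHA in every library, while CYP19A1, AMH, FOXL2 and INHBB were not listed by symbol. The granulosa markers summed to 279, 55.2 and 152 FPKM in Hu 1, Hu 2 and Hu 3 and to between 73.5 and 142 in Mongolian. In Hu 1 most of that sum came from INHA (99.1), INHBA (82.96) and SERPINE2 (82.2), while FSHR, HSD17B1 and GATM were listed at 0, and of the 8 markers 4 had a higher and 4 a lower log2 mean in Hu. Leukocyte markers, 10 of 12 listed, summed to between 18.4 and 34.1 in Hu and between 10.2 and 71.1 in Mongolian, and theca and luteal markers, 9 of 10 listed, to between 31.8 and 187 and between 26.4 and 424. Most of the 424, in Mongolian 3, came from OXT (304.9), which was listed at 0 in Mongolian 1 and Mongolian 2. OXT also made up 78.6 of the 132 FPKM in Hu 1. Of 12 oocyte markers 3 were listed, and their sum reached 1.29 FPKM at most.

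The cell cycle genes followed this unevenness closely. Of the 99 genes, 35, 50 and 91 were listed above 0 in Hu 1, Hu 2 and Hu 3, and 73, 79 and 66 in Mongolian 1, Mongolian 2 and Mongolian 3. As shares these are 35.4%, 50.5% and 91.9% in Hu against 44.9%, 55% and 92.1% of all gene rows in the same libraries. In Mongolian they are 73.7%, 79.8% and 66.7% against 72.8%, 79.2% and 73.2%. The share of these genes was thus below that of all rows in Hu 1, Hu 2 and Mongolian 3 and within 1 percentage point of it in the other libraries, with no test made. Only 23 of the 99 were above 0 in all 6 libraries, 64 were listed at 0 in Hu 1, and 40 in both Hu 1 and Hu 2. A value of 0 is described only as listed at 0, and no mean is given for a breed with such a value.

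**Figure D1:**
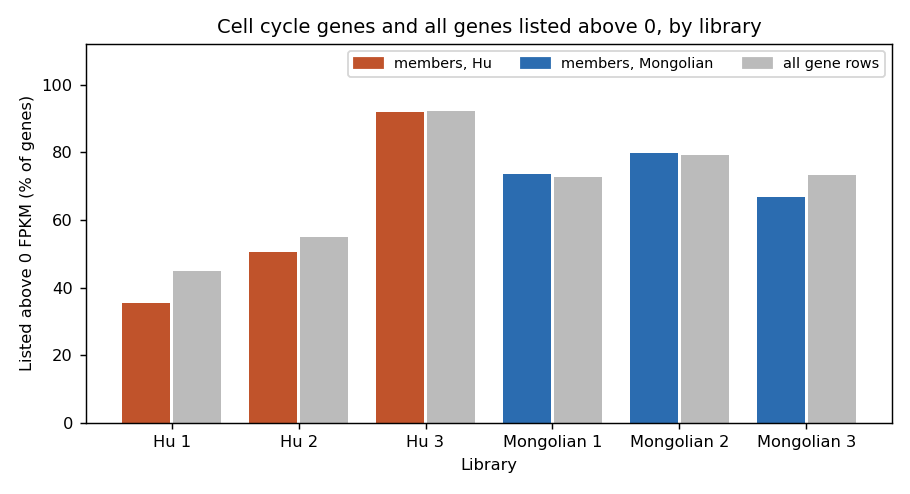
Share of genes listed above 0 FPKM (y axis, percent) in each library (x axis). Coloured bars are the 99 cell cycle and replication genes and grey bars are all 14480 gene rows; in Hu 1 the shares are 35.4% and 44.9%, and in Hu 3 they are 91.9% and 92.1%.

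Most of the genes stood at low levels. The mean over the 6 libraries was under 1 FPKM for 34 genes, from 1 to under 5 for 46, from 5 to under 10 for 10, and 10 or more for 9. The highest were genes with little direct part in division. CDC37, a cochaperone that brings protein kinases to HSP90, stood at 70.4, 43.3 and 84.4 FPKM in Hu 1, Hu 2 and Hu 3 and at 52.3, 55.8 and 78.2 in Mongolian 1, Mongolian 2 and Mongolian 3, the order kept below. CCNG1, a cyclin induced by p53, stood at 22.6, 41.7 and 129.9 in Hu against 63.7, 77.3 and 37.3 in Mongolian. In both genes the breeds overlapped; CDC37 differed by less than 2-fold between any Hu and Mongolian pair, whereas Hu 3 held the highest CCNG1 value and Hu 1 the lowest.

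The comparison of breeds called none of the genes. Genes that reached 0.5 FPKM in 3 or more libraries were tested on log2(FPKM + 1) by limma, which left 67 of the 99 among 9971 genes. Of the 67, 0 had a Benjamini-Hochberg adjusted p under 0.05, as did 0% of all genes tested, and the lowest adjusted p among them was 0.998. At an unadjusted p under 0.05 there were 0 genes higher in Hu, against 0.913% of all genes, and 2 lower (2.99% of the 67), against 2.82% of all genes. These shares are close to the background. The 95% confidence interval of a member's log2 difference reached a median of 1.57 to either side. A 2-fold difference in FPKM is under 1 on this scale, and further under it in low genes. It was thus not detectable for most of them with these libraries.

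The direction of the group as a whole was that of all genes. Of the 67 genes 23 had a higher and 44 a lower log2 mean in Hu (65.7% lower), beside 67.7% lower among all genes tested. The median log2 difference, Hu minus Mongolian, was -0.16 for the 67 and -0.28 for all genes. After quantile normalization, which gives every library the same distribution, the split turned to 40 higher and 27 lower and the medians to 0.14 and 0.02. It also turned without Hu 1 (39 higher and 28 lower), while without Hu 3 it was 11 higher and 56 lower. In these 3 settings 40.3%, 41.8% and 83.6% of the 67 were lower, beside 48.7%, 49.2% and 81.9% of all genes.

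The libraries of the Hu breed lay on both sides of the Mongolian ones. Set against the Mongolian mean of each gene on the log2 scale, Hu 1 lay at a median of -1.09 over the 67 genes (-0.88 over all genes), Hu 2 at -0.56 (-0.48) and Hu 3 at 0.67 (0.51). Hu 3 held the highest value of the 6 libraries in 36 of the 67 genes, or 53.7%, beside 45% of all genes tested. The within-breed SD on the log2 scale had a median of 1.05 in Hu and 0.51 in Mongolian over the 67 genes, beside 0.91 and 0.53 over all genes. The summed level of the 99 genes was 252.5, 275.4 and 804.2 FPKM in Hu 1, Hu 2 and Hu 3 and 415, 446.4 and 412.7 in Mongolian 1, Mongolian 2 and Mongolian 3. The breed means were 444 ± 312 and 425 ± 18.8 (SD, n = 3 each), and the Hu mean rests on Hu 3, since Hu 1 and Hu 2 both lay below every Mongolian library.

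**Figure D2:**
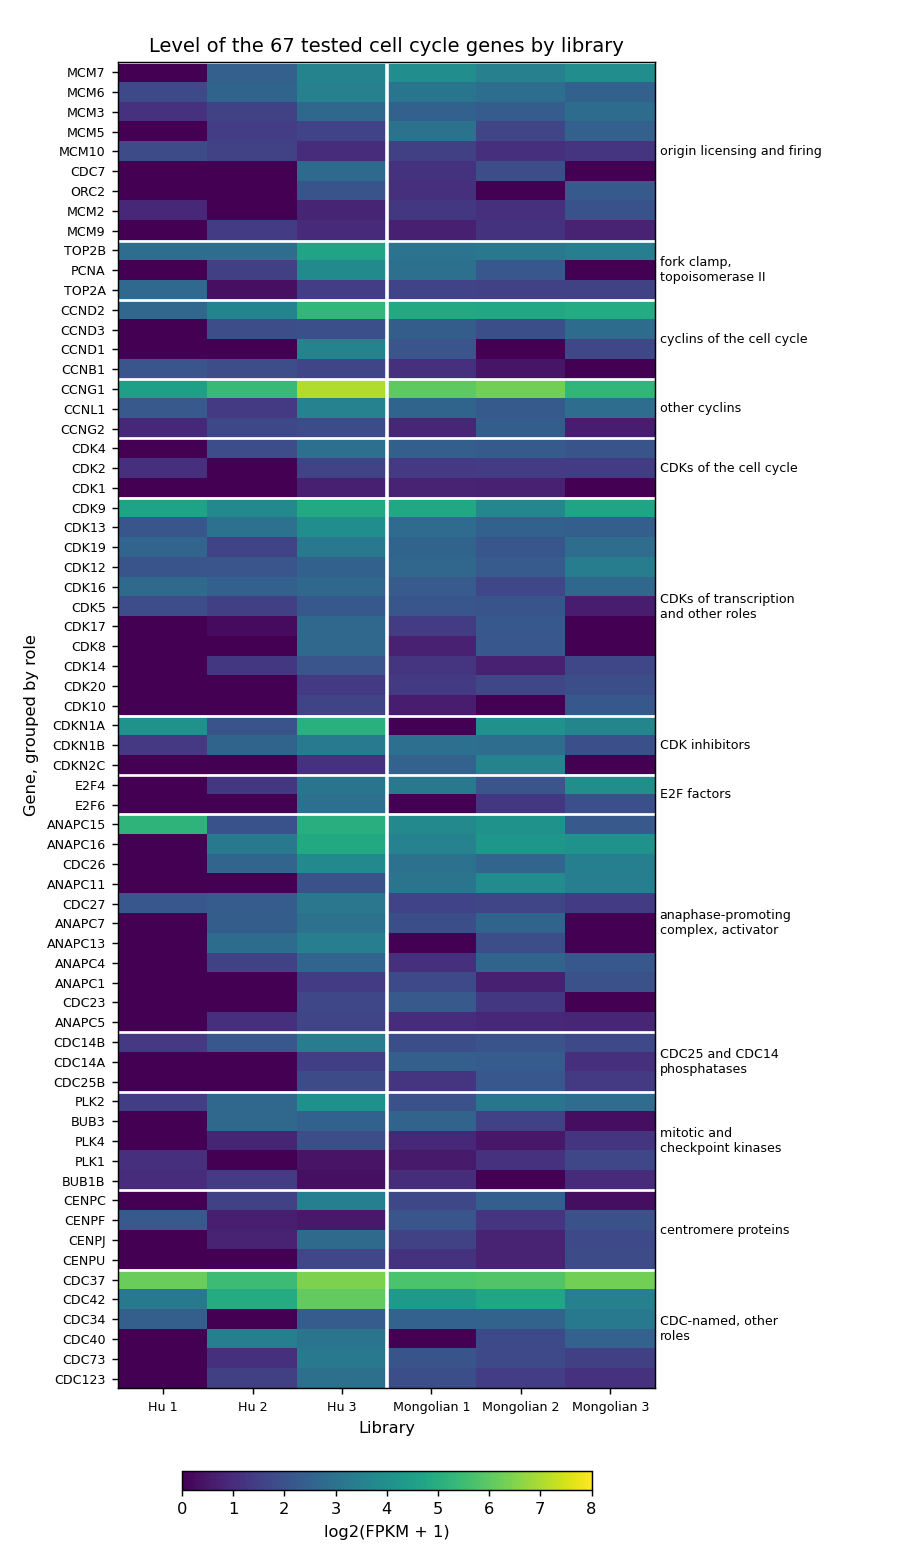
Level on the log2(FPKM + 1) scale (colour) of the 67 tested genes (rows, grouped by role) in the 6 libraries (columns). Hu 1 is dark in many rows and Hu 3 is bright, holding the highest value in 36 of the 67 genes.

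Origin licensing had the most one-sided split of the 4 roles with 6 or more tested genes. Of its 15 listed genes 9 were tested, and 8 of the 9 had a lower log2 mean in Hu (6 of 9 after quantile normalization, 5 of 9 without Hu 1). Their median log2 difference was -0.43, or -0.15 relative to all genes. Without a filter 11 of the 15 listed genes were lower in Hu (73.3%), beside 60.8% of all genes. The median was then -0.19, or -0.03 relative to all genes. MCM2 to MCM7 form the ring of the replicative helicase. Its listed subunits MCM2, MCM3, MCM5, MCM6 and MCM7 all had a lower log2 mean in Hu, with a median of -0.88. They did so too after median-of-ratios scaling (median -0.79) and after quantile normalization (-0.46). Without Hu 1, 4 of these 5 subunits were lower in Hu, and without Hu 3 all 5 were. These are counts without a test, and the subunits share their libraries.

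MCM7 had the highest mean over the 6 libraries of the helicase subunits, though MCM6 was above it in Hu 1 and Hu 2, and was 1 of the 2 genes under an unadjusted p of 0.05. It stood at 0, 4.48 and 11.03 FPKM in the Hu libraries and at 14.1, 10.2 and 14.04 in the Mongolian libraries. Hu 1 and Hu 2 lay below every Mongolian library and Hu 3 lay above Mongolian 2 alone. The log2 difference was -1.76 (standard error 0.81) (limma adjusted p = 0.998), and without Hu 1 it was -0.75.

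MCM5 stood at 0, 1.72 and 2.03 FPKM across Hu and 6.98, 2.17 and 4.43 across Mongolian. All Hu values lay below all Mongolian values, the nearest being Hu 3 and Mongolian 2. The log2 difference was -1.35 (standard error 0.77) (limma adjusted p = 0.998). MCM2 likewise did not overlap, at 0.84, 0 and 0.78 FPKM in Hu against 1.43, 1.11 and 3.01 in Mongolian, with a log2 difference of -0.88 and a standard error of 0.63. The breeds overlapped in MCM2 after median-of-ratios scaling and after quantile normalization, and in MCM5 after the latter. MCM3 and MCM7 went the other way, overlapping as deposited but not under either scaling.

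MCM3 averaged 2.82 ± 2.20 FPKM in Hu against 4.91 ± 1.09 in Mongolian (SD, n = 3 each), and differed by -0.76 on the log2 scale (standard error 0.71). MCM6 stood at 2.37, 4.99 and 10.1 in the Hu libraries and at 7.64, 6.46 and 4.63 in the Mongolian libraries, so that Hu held both the lowest and the highest value. MCM10, which joins the helicase when origins fire, was the only tested member of this role with a higher log2 mean in Hu. It stood at 2.65, 1.93 and 1.02 FPKM in Hu against 1.86, 1.10 and 1.28 in Mongolian. MCM9, a helicase of DNA repair and meiosis, reached 1.598 FPKM at most and overlapped between breeds.

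Transcripts of the proteins that load the helicase were listed at low values or at 0. ORC1, ORC3, ORC4, ORC5, ORC6 and the loader CDC6 were under the filter, and ORC1 and ORC5 were each listed in a single library, at 0.59 FPKM in Mongolian 2 and 0.95 in Hu 3. ORC2 was listed at 0, 0 and 3.19 FPKM across Hu and 1.11, 0 and 3.83 across Mongolian. CDC7, the kinase that starts origin firing, was listed at 0, 0 and 5.59 in Hu against 1.26, 2.71 and 0 in Mongolian. Among the Hu libraries these origin proteins were above 0 in Hu 3 alone, apart from ORC3, at 0.37 in Hu 1, and ORC1, at 0 in all 3.

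PCNA, the sliding clamp of the polymerases, was listed at 0, 1.88 and 12.8 FPKM in the Hu libraries and at 6.79, 3.50 and 0 in the Mongolian libraries. Both breeds thus held a library at 0, and the log2 difference was 0.06 (95% interval -2.07 to 2.19). TOP2A, the topoisomerase II of dividing cells, averaged 2.53 ± 2.77 in Hu against 1.996 ± 0.09 in Mongolian (SD, n = 3 each). Its Mongolian libraries lay within 1.90 to 2.08 while Hu 1 stood at 5.61 and Hu 2 at 0.26. TOP2B, the form that resting cells also use, stood at 6.38, 6.21 and 24.4 across Hu and 7.27, 8.13 and 9.67 across Mongolian.

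Among the cyclins of the cell cycle, CCND2 was the most abundant, and its Mongolian values lay close together. It stood at 5.46, 11.3 and 38.3 FPKM in Hu against 27.8, 26.1 and 29.6 in Mongolian. Hu 1 and Hu 2 lay below, and Hu 3 above, all Mongolian libraries, and the log2 difference was -0.98 (standard error 0.63) (limma adjusted p = 0.998). It was -0.39 without Hu 1 and -1.69 without Hu 3. After median-of-ratios scaling and after quantile normalization all 3 Hu values lay below the Mongolian ones. Hu 1, which had the lowest CCND2, had the highest INHA, INHBA and SERPINE2 but was at 0 for FSHR, HSD17B1 and GATM. FSHR was also listed at 0 in Mongolian 1 and Mongolian 2, and HSD17B1 in Hu 2. The part of granulosa cell content in the CCND2 values was not tested.

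The other D-type cyclins were lower in level. CCND3 was listed at 0, 2.71 and 2.90 FPKM in the Hu libraries and at 4.14, 2.77 and 6.04 in the Mongolian libraries. CCND1 was listed at 0, 0 and 11.2 across Hu and 3.30, 0 and 2.26 across Mongolian, and differed by -0.06 on the log2 scale (95% interval -2.09 to 1.96).

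CCNB1, the cyclin that takes cells into mitosis, ran the other way. It stood at 3.31, 2.71 and 2.16 FPKM in Hu against 1.14, 0.38 and 0 in Mongolian. Every Hu library lay above every Mongolian library, also after median-of-ratios scaling and after quantile normalization. The log2 difference was 1.37 (standard error 0.67), and the unadjusted p of 0.0579 became an adjusted p of 0.998 in limma.

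Its partners did not share that pattern. CDK1, the kinase that CCNB1 activates, was listed at 0.01, 0 and 0.61 FPKM in the Hu libraries and at 0.75, 0.65 and 0 in the Mongolian libraries. CCNB2 was listed at 1.99 in Mongolian 2, at 0.08 in Hu 3 and at 0 elsewhere, and CCNA2, the cyclin of S and G2 phase, reached 1.31 in Mongolian 3. The log2 difference of CDK1 was -0.27 with a 95% confidence interval from -1.23 to 0.68; its direction turned to 0.31 after quantile normalization. CENPH, which is next to CCNB1 in the RefSeq gene order and the sole such neighbour pair among the 99, was listed in Hu 3 alone, at 1.83 FPKM.

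**Figure D3:**
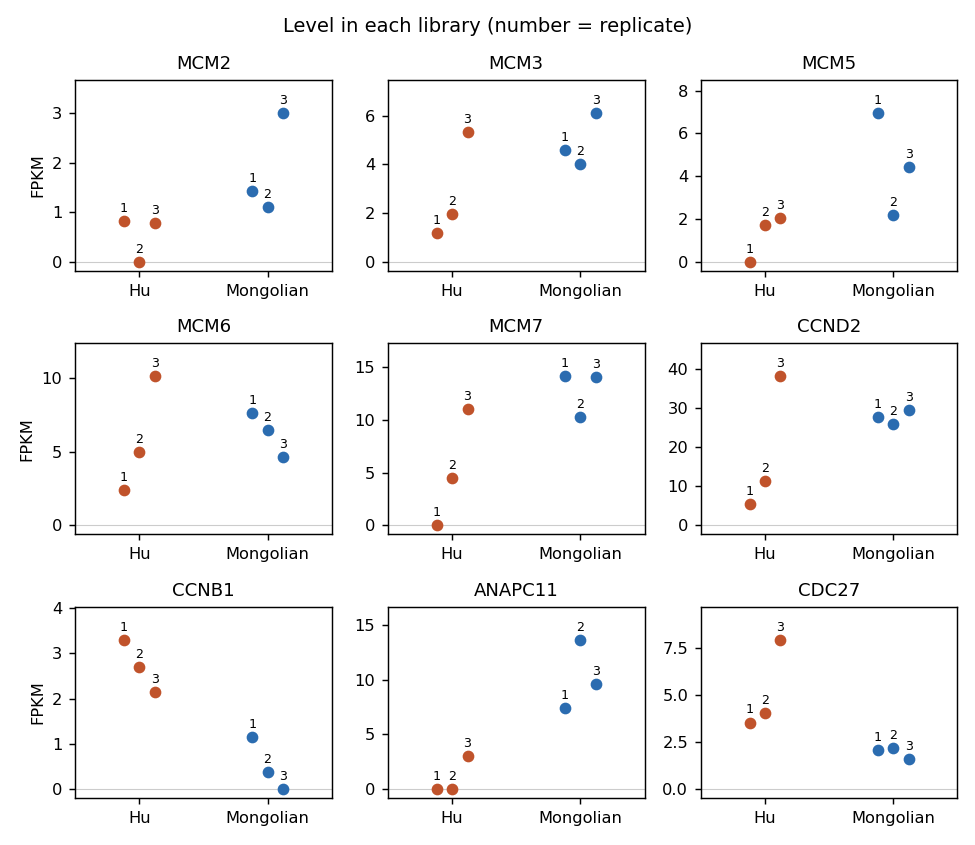
Level in FPKM (y axis, from 0) of 9 genes in each Hu and Mongolian library (x axis), each point 1 library with its replicate number. CCNB1 and CDC27 are higher in every Hu library than in any Mongolian one, ANAPC11, MCM2 and MCM5 are lower, and CCND2 ranges from 5.46 to 38.3 in Hu against 26.1 to 29.6 in Mongolian.

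The kinases that act with the D and E cyclins were listed at low levels. CDK4 was listed at 0, 2.71 and 6.58 FPKM across Hu and 4.31, 3.798 and 3.21 across Mongolian, and CDK2 at 1.18, 0 and 2.10 against 1.53, 1.70 and 1.66. The Mongolian values of CDK2 and CDK4 were close together, and the Hu values lay on both sides of them. The log2 difference was -0.64 for CDK4 (95% confidence interval from -2.38 to 1.10) and -0.48 for CDK2 (from -1.92 to 0.97); CDK2 turned to 0.09 after quantile normalization, and CDK4 to 0.16 without Hu 1. CDK6, an alternative partner of the D cyclins, was listed in Mongolian 3 alone, at 2.47 FPKM.

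Of the CDKs with roles outside division, 6 were above 0 in every library. All 11 listed genes of this role passed the filter, 4 with a higher and 7 with a lower log2 mean in Hu, and the median log2 difference was -0.08. The split turned to 8 higher and 3 lower after quantile normalization (median 0.18), to 6 and 5 without Hu 1 or without Mongolian 3, and to 7 and 4 without Hu 2. CDK9, the kinase that releases paused RNA polymerase II, averaged 21.7 ± 7.72 FPKM in Hu against 20.9 ± 7.75 in Mongolian (SD, n = 3 each). CDK12, which acts on the same polymerase, averaged 3.71 ± 0.78 in Hu against 6.19 ± 2.89 in Mongolian. CDK13, its close relative, averaged 8.17 ± 5.51 against 4.95 ± 0.83. CDK20, a kinase linked to cilia, was listed at 0, 0 and 1.57 in Hu against 1.59, 2.27 and 2.82 in Mongolian, without overlap but with Hu 3 close to Mongolian 1 (log2 difference -1.22, standard error 0.66, limma adjusted p = 0.998).

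The CDK inhibitors showed no common direction. CDKN1A, the p53 target p21, was listed at 16.2, 3.18 and 33.01 FPKM in the Hu libraries and at 0, 15.5 and 11.6 in the Mongolian libraries. The log2 difference was 1.19 (standard error 0.98), and without Mongolian 1 it was -0.10. CDKN1B, p27, averaged 5.11 ± 3.66 in Hu against 5.17 ± 2.03 in Mongolian (SD, n = 3 each), and differed by -0.16 on the log2 scale (95% interval -1.68 to 1.36); it was 0.13 after quantile normalization. CDKN2C, an inhibitor of CDK4 and CDK6, was listed at 0, 0 and 1.23 across Hu and 4.74, 10.95 and 0 across Mongolian, and differed by -1.65 on the log2 scale (standard error 0.86). CDKN2D was listed in Hu 2 and Hu 3 alone, at 2.499 and 0.19 FPKM.

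Of the E2F factors, E2F4, the factor that represses cell cycle genes in resting cells, was the most abundant. It was listed at 0, 1.48 and 7.70 FPKM in Hu against 8.45, 3.29 and 14.4 in Mongolian. The breeds overlapped through Hu 3, and the log2 difference was -1.62 (standard error 0.85) (limma adjusted p = 0.998). E2F6, another repressor, was listed at 0, 0 and 6.56 in the Hu libraries and at 0, 1.46 and 2.90 in the Mongolian libraries. E2F3, E2F5, E2F7 and E2F8 were under the filter and reached 1.91 FPKM at most.

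The anaphase-promoting complex held the largest log2 differences of the 67 genes as deposited, ANAPC11 downward and ANAPC13 upward. CCNB1 exceeded ANAPC13 with a pseudocount of 0.1 (2.84 against 2.58), after median-of-ratios scaling (1.46 against 1.32) and, by a small margin, after quantile normalization (1.539 against 1.534). It marks mitotic cyclins and other proteins for destruction, and 13 of its genes were listed and 11 tested, 4 with a higher and 7 with a lower log2 mean in Hu (63.6% lower). Their median log2 difference was -0.56. Without Hu 1 the split turned to 8 higher and 3 lower with a median of 0.14, and without Hu 3 the median was -1.16. ANAPC11, the subunit with the catalytic RING domain, was listed at 0, 0 and 2.99 FPKM across Hu and 7.38, 13.7 and 9.60 across Mongolian. All Hu values lay below all Mongolian values under each scaling tried. Its log2 difference was -2.78 (standard error 0.77), the unadjusted p was 0.00244 and the limma adjusted p 0.998.

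Among the other subunits CDC27 and ANAPC13 had a higher log2 mean in Hu and ANAPC1 a lower one. CDC27, a scaffold subunit that binds the activators, averaged 5.195 ± 2.42 FPKM in Hu against 1.96 ± 0.32 in Mongolian (SD, n = 3 each), and every Hu library lay above every Mongolian one, also under the other scalings. ANAPC13, a small scaffold subunit, was listed at 0, 6.05 and 9.70 in Hu against 0, 2.71 and 0 in Mongolian, and differed by 1.45 on the log2 scale (standard error 0.92). ANAPC1, the largest scaffold subunit, was listed at 0, 0 and 1.596 in the Hu libraries and at 2.42, 0.63 and 2.997 in the Mongolian libraries (log2 difference -1.03, standard error 0.66). Whether the differences of these subunits are unequal was not tested.

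The breeds overlapped in the most abundant subunits of the complex. ANAPC15 stood at 35.6, 3.01 and 31.1 FPKM across Hu and 12.6, 16.3 and 3.70 across Mongolian. ANAPC16 was listed at 0, 8.33 and 28.2 in Hu against 10.7, 17.8 and 16.4 in Mongolian. CDC26 was listed at 0, 5.09 and 13.001 in the Hu libraries and at 7.05, 5.15 and 9.88 in the Mongolian libraries; its second row, at 4.18, 0 and 4.21 and at 2.78, 5.58 and 3.24, shares the symbol, and reads could be divided between the copies. CDC20, which activates the complex at anaphase, was listed in Mongolian 1 alone, at 1.20 FPKM.

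The CDC25 and CDC14 phosphatases were represented by 3 genes. CDC14A was listed at 0, 0 and 1.83 FPKM across Hu and 4.31, 3.98 and 1.14 across Mongolian, and differed by -1.44 on the log2 scale (standard error 0.73) (limma adjusted p = 0.998). CDC25B, which activates CDK1, was listed at 0, 0 and 2.53 in Hu against 1.36, 3.46 and 1.57 in Mongolian. CDC14B stood at 1.53, 3.51 and 9.35 in the Hu libraries and at 2.82, 3.16 and 2.43 in the Mongolian libraries.

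**Figure D4:**
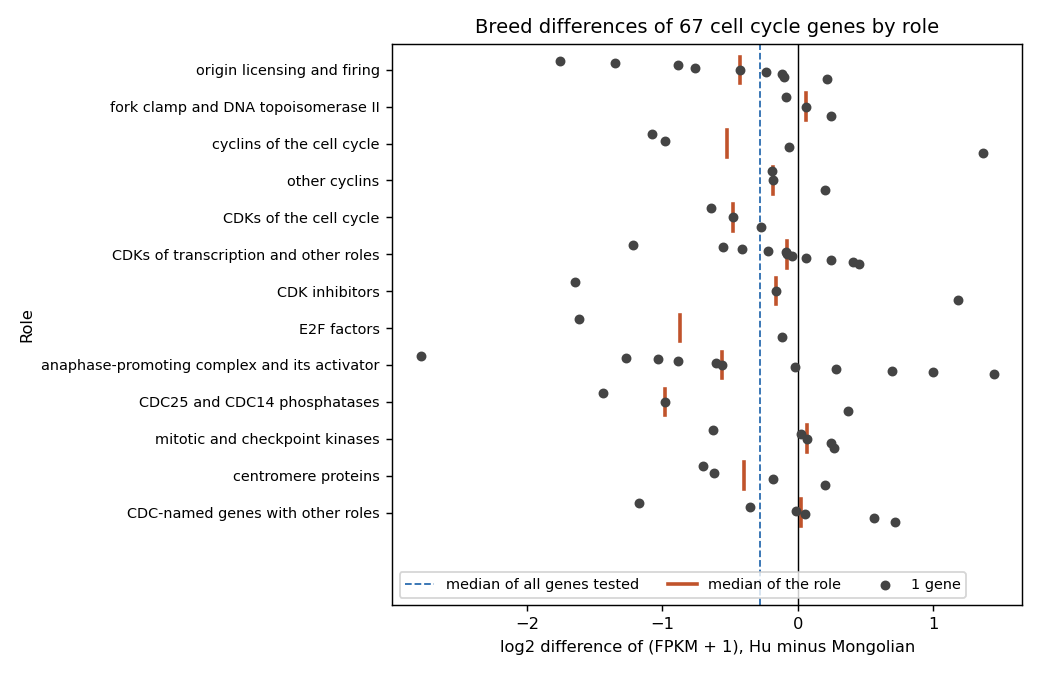
Log2 difference of (FPKM + 1), Hu minus Mongolian (x axis), of the 67 tested genes by role (y axis). Points are genes, short bars the median of each role, and the dashed line the median of all genes tested (-0.28); the anaphase-promoting complex spans from -2.78 to 1.45.

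Kinases of mitosis and its checkpoint were among the scarcest genes. PLK1, the main mitotic polo kinase, was listed at 1.13, 0 and 0.35 FPKM across Hu and 0.50, 1.19 and 2.23 across Mongolian. AURKA and AURKB, the kinases of the spindle and of the chromosomal passenger complex, reached 0.66 and 1.76 at most. PLK2, a polo kinase induced by stress and growth signals, was the most abundant of this role, at 1.81, 5.37 and 15.1 in Hu against 2.98, 7.62 and 6.24 in Mongolian. Of the 5 tested genes of this role 4 had a higher log2 mean in Hu, with a median of 0.07, and without Hu 3 that median was -0.47.

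The centromere proteins were nearly all under the filter, with 4 of the 14 listed genes tested. CENPH, CENPL, CENPN, CENPQ and CENPW were listed in Hu 3 alone, at 0.28 to 2.46 FPKM. CENPF, a kinetochore protein of dividing cells, stood at 3.70, 0.59 and 0.46 in the Hu libraries and at 3.31, 1.30 and 2.999 in the Mongolian libraries. CENPC, which anchors the kinetochore to the centromere in all phases, was listed at 0, 1.98 and 9.96 across Hu and 2.33, 4.27 and 0.23 across Mongolian.

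Among the Hu libraries, Hu 1 held the fewest listed genes and its values for genes of dividing cells were mixed. CCNB1, TOP2A, CENPF and MCM10 had their highest value of all 6 libraries there, as did ANAPC15 and CDK16, together 6 of the 67 genes (8.96%, beside 4.47% of all genes tested). These genes were noted after their values were seen, and in the same library PCNA, MCM5, MCM7, CCNA2, CCNB2 and AURKA were listed at 0 and CDK1 at 0.01. MKI67, the proliferation antigen, which is outside the 99, stood at 3.51, 0.83 and 0.57 FPKM in Hu against 3.74, 2.66 and 3.78 in Mongolian, so that Hu 1 was near the Mongolian level and Hu 2 and Hu 3 were below it.

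The remaining genes carry CDC names but, CDC34 apart, act mainly elsewhere. CDC42, a small GTPase of the cytoskeleton, stood at 8.43, 29.6 and 66.8 FPKM in the Hu libraries and at 19.3, 25.5 and 10.2 in the Mongolian libraries. CDC34, a ubiquitin-conjugating enzyme that helps to destroy CDK inhibitors, was listed at 4.37, 0 and 4.08 across Hu and 4.67, 4.78 and 8.51 across Mongolian, with Hu 1 just below Mongolian 1. CDC40, CDC73 and CDC123, which act in splicing, transcription and translation, overlapped between breeds.

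Over the 67 genes the breeds failed to overlap in 7. The Hu values were all above the Mongolian ones in CCNB1 and CDC27, or 2.99% of the 67, beside 1.88% of all genes tested. All Hu values lay below in ANAPC11, CDC34, CDK20, MCM2 and MCM5, or 7.46%, beside 6.05% of all genes. The counts were 2 and 6 after median-of-ratios scaling (3.56% and 8.22% of all genes) and 5 and 6 after quantile normalization (5.48% and 5.61%). CCNB1, CDC27, ANAPC11 and CDK20 were the genes without overlap as deposited and under both other scalings.

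**Figure D5:**
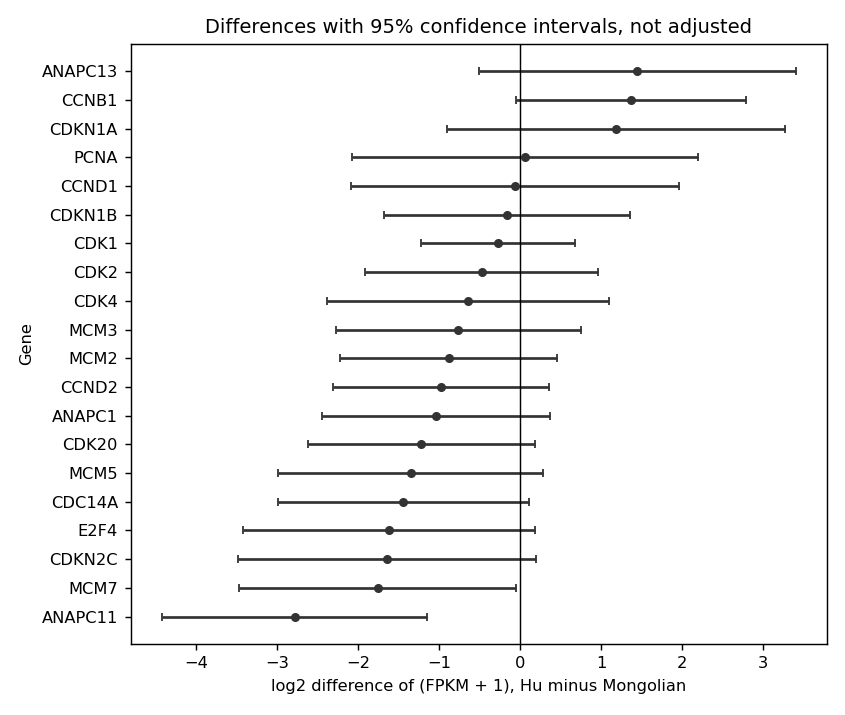
Log2 difference of (FPKM + 1), Hu minus Mongolian (x axis), with its unadjusted 95% confidence interval from limma (bars), for 20 named genes (y axis). The intervals of ANAPC11 and MCM7 lie below 0, the others include 0, and no gene passed adjustment.

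Genes of the same processes outside the 99 mostly had a lower log2 mean in Hu as deposited, as 67.7% of all genes did. Of 35 further genes of the replication machinery 32 were listed and 20 tested, 4 with a higher and 16 with a lower mean (80% lower), and their median log2 difference was -0.58. After quantile normalization 13 of the 20 were lower, with a median of -0.26. Of 38 further mitosis genes 32 were listed and 15 tested, 1 higher and 14 lower (93.3%), with a median of -0.55. After quantile normalization 10 of the 15 were lower. Without a filter 11 of the 32 listed mitosis genes were higher and 21 lower (65.6%), beside 60.8% lower among all genes. The median was then -0.24, or -0.08 relative to all genes. The near-uniform direction thus held only for mitosis genes that passed the filter. Of the 32 listed replication genes 23 were lower without a filter (71.9%). Of 37 regulators of the RB, p53 and checkpoint pathways 27 were tested, 8 higher and 19 lower (70.4% lower). That list turned to 16 higher and 11 lower after quantile normalization (median 0.17) and to 14 and 13 without Hu 2. Without a filter 22 of the 35 listed regulators were lower (62.9%). As deposited, none of the genes tested in these lists passed the adjusted threshold. The medians of the tested genes were -0.31, -0.28 and -0.06 relative to all genes.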

How the data were processed

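The authors deposited gene levels as FPKM with a column per library, and columns were matched to samples by the codes in the sample descriptions. RNA was column-purified and libraries were made with a SMARTer kit, per the labels' protocols. Aligner, quantifier and build are steps not given in the sources used here. A second file, of lncRNAs, was not used. Libraries shared 0 identical values above 0. Among genes under 2 FPKM, at most 1.2% of the ratios between a pair of libraries fell in a bin 0.2% wide, so whole reads were not recovered and no count model was used.

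The 9971 genes that reached 0.5 FPKM in 3 or more of the 6 libraries were fitted on log2(FPKM + 1) with limma 3.58.1 (R 4.3.3), using lmFit and a trended eBayes. Breed was the only factor, tests were two-sided and p-values were Benjamini-Hochberg adjusted over all genes. A log2 difference on this scale understates the change of low genes. Differences are Hu minus Mongolian. The fit was also run on simulated data, with large changes placed in the more abundant genes only. The simulated spread was capped below the median SD within Hu, so that run does not show what could be detected here.

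The genes, role groups and gene lists were chosen with earlier results of these data known. Log2 differences are printed for 14 core genes where tested (12) and for the 10 tested genes with the smallest p, together 20 genes; other genes are given by their values. Alternatives were another pseudocount, 3 other filters, 2 scalings, a replicate block, array weights, and libraries left out. RefSeq names come from the assembly ARS-UI_Ramb_v3.0, used for names and gene order only. The planned description of promoter motifs was not run, and sequences were not used here.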

Additional observations from a re-analysis of the deposited data

How the results depend on the processing

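The adjusted threshold was passed by 0 of the 67 tested genes as deposited and under every alternative except limma array weights. Those weights (Hu 1 0.41, Hu 2 3.64, Hu 3 0.25) called 633 of the 9971 genes tested, 5 of the listed pathway genes and 4 of the 67. The share of the 67 was close to that of all genes. The 4 were ANAPC11 (limma adjusted p = 0.00653), CDC14A (0.0309), CDC34 (0.0319) and CDKN2C (0.0435), all lower in Hu. Most of the Hu weight lay on Hu 2, where CDC34 was listed at 0, beside 4.37 and 4.08 FPKM in Hu 1 and Hu 3. The count of all genes called ranged from 0 to 6 when libraries were left out, including Hu 1 and Hu 3 together, which leaves 1 Hu library whose spread is assumed from the others.

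Genes of the 67 at an unadjusted p under 0.05 and lower in Hu, 2 as deposited, numbered 1 with a pseudocount of 0.1, without a filter or with a filter at 5 FPKM, 0 among genes above 0 in all libraries, 5 after median-of-ratios scaling, 14 with array weights and from 1 to 11 with libraries left out, 11 being without Hu 3. Those higher in Hu, 0 as deposited, numbered 1 with median-of-ratios scaling, 2 with quantile normalization, 3 with array weights and from 0 to 3 with libraries left out, 3 being without Hu 1. The background moved as well. Of all 9971 genes, 372 had an unadjusted p under 0.05 in limma as deposited (24.5% of them higher in Hu). There were 637 after median-of-ratios scaling (28.7% higher) and 581 after quantile normalization (52%). Array weights gave 2745 (16.2%), leaving out Hu 3 gave 1531 (4.25%), and leaving out Hu 1 gave 466 (64.8%). No test set the 67 against all genes.

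Median log2 differences of roles moved by more than the spread between libraries as follows. With a pseudocount of 0.1 they were -2.79 for the CDC25 and CDC14 phosphatases, -1.40 for the CDKs of the cell cycle and -0.65 for the other CDKs. Among genes above 0 in all libraries they were 0.37 for the phosphatases, with 1 gene left of 3 (CDC14B). For the anaphase-promoting complex the median was 0.85, with 2 genes left of 11 (CDC27 and ANAPC15). The other CDKs stood at -0.53 with array weights, and the mitotic kinases at 0.46 after quantile normalization. With libraries left out they ranged from -0.68 to 0.36 for the other CDKs, from -1.34 to 0.075 for the cyclins of the cell cycle and from -0.47 to 0.48 for the mitotic kinases. The cause was not tested.

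Of the 20 genes with printed log2 differences, 13 kept their direction under all alternatives in which they were tested. After quantile normalization CCND1 stood at 0.34, CDK1 at 0.31, CDK2 at 0.087 and CDKN1B at 0.13, and PCNA stood at -0.063 after median-of-ratios scaling and -0.64 with array weights. With libraries left out the differences ranged from -1.27 to 0.54 for CCND1, -1.30 to 0.16 for CDK4, -0.50 to 2.03 for CDKN1A, -0.61 to 0.38 for CDKN1B and -0.95 to 0.95 for PCNA; the low end of CCND1, CDK4, CDKN1B and PCNA was without Hu 3. The cause was not tested.

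Same-numbered libraries of the breeds did not deviate together (correlations of -0.01, -0.03 and -0.18 over genes, beside -0.11 to 0.16 for other pairs). The values were centred within only 3 libraries per breed, so this cannot exclude a pairing, and the labels name none. With the replicate number as a block, 0 genes were called, 0 of the 67 among them. An unadjusted p under 0.05 was then found for 2 of the 67, beside 397 of all 9971 genes. Depth is unknown, so values near 0 have no floor.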
